A study of Mus musculus with 54 samples.

Results

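The 10 genes described here encode the machinery that microglia, the resident macrophages of the brain, can use to build tunnelling nanotubes and filopodia. They are Tnfaip2, Lst1, Rala, Ralb, Myo10, Fscn1, Eps8, Baiap2, Cdc42 and Rac1, taken by symbol from a count table of 16632 genes. All 10 were listed, and all 10 were among the 13169 genes that passed the filter on low counts.

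Tunnelling nanotubes are thin membrane tubes with an actin core that connect cells over a distance and can carry organelles and protein aggregates, alpha-synuclein (aSyn) among them. Tnfaip2 (M-Sec) starts them together with the GTPase RalA and the exocyst, a complex that tethers vesicles to the plasma membrane, and Lst1 is a membrane adaptor that recruits RalA and the exocyst. Filopodia are finger-like protrusions in which parallel actin filaments are bundled, bent membrane is stabilised and cargo is moved to the tip. Cdc42 and Rac1 are the small GTPases upstream of these actin structures.

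Primary microglia of C57BL/6 mice were prepared from neonatal brains and shaken off an astrocyte layer, with the cells of 2 brains in a flask, and were kept in medium with fetal calf serum and L929-conditioned supernatant. Untreated cells (Untreated_Ctrl) received no aSyn. Cells labelled aSyn_Donor took 1 µM of Atto-488-labelled aSyn for 14 h without co-culture. Donors had the same aSyn treatment and were co-cultured for 0, 15, 30, 60, 150 or 300 min with acceptors, microglia that carried a violet dye and were given no aSyn, before flow cytometry separated the populations. All groups shared the strain. The labels give passage 3, 1, 2 and 2 for replicate numbers 1 to 4. The 14 groups held 54 libraries of 3′ tags, and the 6 untreated ones stand for 4 replicate numbers, since libraries with the same number were summed. Each group then had 3 or 4 samples, 52 in all, and the replicate number is called the experiment here. Nothing in the labels says whether untreated and aSyn-only cells passed the sorter.

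Library totals ran from 7807389 to 15537493 counts. Experiment 4 stood apart: its 13 libraries had their 10 most abundant genes at 26.2 to 32.6% of counts, against 13.9 to 23.3% in the other 41. It also has facility numbers of its own, so results are given with and without it where that matters. The summed level of 10 microglia markers lay between 2679 and 12798 CPM (counts scaled to the effective library size) in every sample, with none of the markers at 0 in any group. In experiment 4 that sum was 2679 to 3167 CPM in the aSyn-treated and donor samples and 4772 to 5758 CPM in the others. The 8 astrocyte markers, all detected in untreated and in aSyn-treated cells, summed to 11.3, 18.8, 77.6 and 139 CPM in untreated experiments 1 to 4 and to at most 42.3 CPM in any sample of the other 13 groups. The 6 neuron markers summed to 3.53, 3.75, 23.1 and 30.3 CPM in untreated and to 1.35 to 3.50 CPM in aSyn-treated cells, and the 9 oligodendrocyte-lineage markers to 122 to 605 and 86.9 to 257.1 CPM. In bulk RNA, fewer cells of a type and less RNA per cell cannot be told apart.

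The first comparison asks what aSyn does to the machinery before any contact with acceptors. Tnfaip2, Baiap2 and Rala were higher in aSyn-treated than in untreated microglia, by 2.71-, 2.11- and 1.33-fold, and Myo10 was lower, at 0.499 of the untreated level. These 4 of 10 members were called by edgeR's quasi-likelihood test (Benjamini-Hochberg adjusted p under 0.05), 3 higher and 1 lower. Over all genes 2.5% were called, 1.6% higher and 0.896% lower. The median log2 fold change was 0.25 over the members and -0.04 over all genes.

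A second fit held the experiment as a block and so compared cells within an experiment. It called 6 of 10 members, the same 4 with Rac1 and Cdc42 lower in addition, but it also called 19.2% of all genes, 8.95% higher and 10.2% lower. A fold change is the edgeR estimate with its standard error (SE).

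Tnfaip2 is described first among the inducers. It lies on chr12:111442469-111455018 (plus strand, mm10), where its exons overlap those of Gm40578 on the other strand, and whether the counting used strand is not given in the sources used here. Untreated cells had 151, 147, 133 and 203 CPM in experiments 1 to 4, and aSyn-treated cells had 437, 384, 316 and 576 CPM. The groups did not overlap, and each treated sample was more than 2-fold above the untreated sample of its experiment. The log2 fold change was 1.44 ± 0.375 (SE, n = 4 and 4, edgeR adjusted p = 0.0259), and 1.43 ± 0.214 with the block (adjusted p = 8.34e-06). Without the block, the call was lost when experiment 1, 2 or 3 was left out, with log2 fold changes between 1.41 and 1.49 over the 4 fits. With the block it was made in 4 of 4 such fits.

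Baiap2 (IRSp53) is a scaffold whose I-BAR domain bends membrane outward and which links Cdc42 and Rac1 to actin regulators. It lies on chr11:119942763-120006782 (plus strand). Untreated cells had 24.3, 31.4, 26.0 and 19.3 CPM, and aSyn-treated cells had 44.2, 50.1, 49.1 and 69.5 CPM. Every treated sample lay above every untreated one. The log2 fold change was 1.07 ± 0.189 (SE, n = 4 and 4, edgeR adjusted p = 0.00105). It was called in 4 of 4 fits that left out 1 experiment, at log2 fold changes from 0.82 to 1.25.

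The promoters of Tnfaip2 and Baiap2 are printed because these 2 members had the largest increases and their levels ran together over the 52 samples (Pearson r = 0.777 of log2 CPM after removal of the experiment means, a description, since samples of an experiment share a replicate number and a passage and are not independent). Each window holds 250 bases before and 50 after the start site, from RefSeq on GRCm38.p6, which has the coordinates of mm10. The loci given above are from GENCODE and begin further upstream than these start sites. The Baiap2 locus begins at 119942763, before its window, and the Tnfaip2 locus at 111442469, inside its window. Capitals mark GC boxes, GGGCGG or its reverse complement.

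Tnfaip2, chr12:111442411-111442710, plus strand: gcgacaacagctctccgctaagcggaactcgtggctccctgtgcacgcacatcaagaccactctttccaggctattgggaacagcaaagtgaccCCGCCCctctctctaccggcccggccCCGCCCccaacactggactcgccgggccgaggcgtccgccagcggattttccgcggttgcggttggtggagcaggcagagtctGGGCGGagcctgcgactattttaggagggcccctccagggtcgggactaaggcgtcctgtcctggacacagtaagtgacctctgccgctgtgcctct

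Baiap2, chr11:119942842-119943141, plus strand: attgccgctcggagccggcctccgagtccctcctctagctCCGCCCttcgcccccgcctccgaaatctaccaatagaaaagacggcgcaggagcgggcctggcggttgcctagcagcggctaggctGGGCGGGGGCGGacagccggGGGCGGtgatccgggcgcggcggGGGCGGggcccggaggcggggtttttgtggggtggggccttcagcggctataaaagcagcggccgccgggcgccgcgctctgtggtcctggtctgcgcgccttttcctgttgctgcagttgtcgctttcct

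The Tnfaip2 window holds 3 GC boxes, which begin at -156, -130 and -47 from the start site, and the Baiap2 window holds 5, which begin at -210, -124, -118, -104 and -81. GC boxes are common: 35.7% of 32851 promoter windows of this length hold at least 1. Searches of both strands, set up after the expression values were seen, used the NF-kB motif, AP-1 (TGANTCA), the MiT/TFE E-box (TCANNTGA), CRE (TGACGTCA) and the antioxidant response element (TGACNNNGC). In these 2 windows the only match was an antioxidant response element of Tnfaip2 that begins at -161 and overlaps its first GC box. Windows with a match make up 4.51, 7.81, 8.39, 1.79 and 12.4% of all promoters for the 5 motifs in that order. A match is a string of letters and shows no binding. Of the other members, 5 had a promoter entry: the CRE letters occur in those of Fscn1 (at -45) and Cdc42 (at 36), and the antioxidant letters in the window of a second Myo10 start (at 42).

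Rala encodes the GTPase RalA, which binds the exocyst and is activated by exchange factors such as RalGDS. It lies on chr13:17880571-17944239 (minus strand). Untreated cells had 200, 260, 195 and 179 CPM, and aSyn-treated cells had 230, 281, 281 and 317 CPM. The increase was present in each experiment, but the groups overlapped, because untreated experiment 2 lay above treated experiment 1. The log2 fold change was 0.41 ± 0.113 (SE, n = 4 and 4, edgeR adjusted p = 0.0374), and 0.42 ± 0.0848 with the block (adjusted p = 0.000485). Without the block the call was lost when experiment 1, 3 or 4 was left out. With the block it was made in 4 of 4 such fits.

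Ralb, the close relative of Rala, had 53.6 to 62.0 CPM in untreated and 56.7 to 69.05 CPM in aSyn-treated cells. Its log2 fold change was 0.08, with a 95% interval from -0.17 to 0.33, and it passed no test of this study. No 50-base window in the last 300 bases of the members' transcripts occurs in the sense transcripts of another gene, so tags of Rala and Ralb can be told apart.

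Myo10 encodes the filopodial motor myosin X, which carries cargo to filopodium tips. It lies on chr15:25622525-25813673 (plus strand). Untreated cells had 90.2, 43.7, 101 and 140 CPM, and aSyn-treated cells had 58.4, 42.4, 46.4 and 40.1 CPM. Treated samples were low and alike, whereas untreated samples were spread, and untreated experiment 2 fell inside the treated range. The log2 fold change was -1.003 ± 0.2499 (SE, n = 4 and 4, edgeR adjusted p = 0.0196). Without the block it was no longer called when experiment 3 or 4 was left out. The value without experiment 4 was -0.66. Block fits that left out 1 experiment called Myo10 in 4 of 4 cases.

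The 2 untreated samples with the highest Myo10, experiments 4 and 3, were also the ones with the highest astrocyte and neuron marker sums. None of the 8 astrocyte markers was called in this comparison without the block, and 5 of 8 were lower in aSyn-treated cells with it. With the block 4 of 9 oligodendrocyte-lineage markers and the neuron marker Map2 were also lower, and without it none of these was called. In experiment 1 Myo10 was 90.2 against 58.4 CPM while the astrocyte sum was 11.3 against 13.9 CPM. The oligodendrocyte-lineage sum was 205, 121.5, 605 and 221 CPM in untreated experiments 1 to 4. After aSyn it was 163.6, 122.2, 257.1 and 86.9 CPM. That sum was thus lower in experiments 1, 3 and 4 and nearly level in experiment 2, as Myo10 was. The part of these markers in the Myo10 result was not tested.

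The plot of the 4 called members by sample shows these values for all 14 groups.

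**Figure D1:**
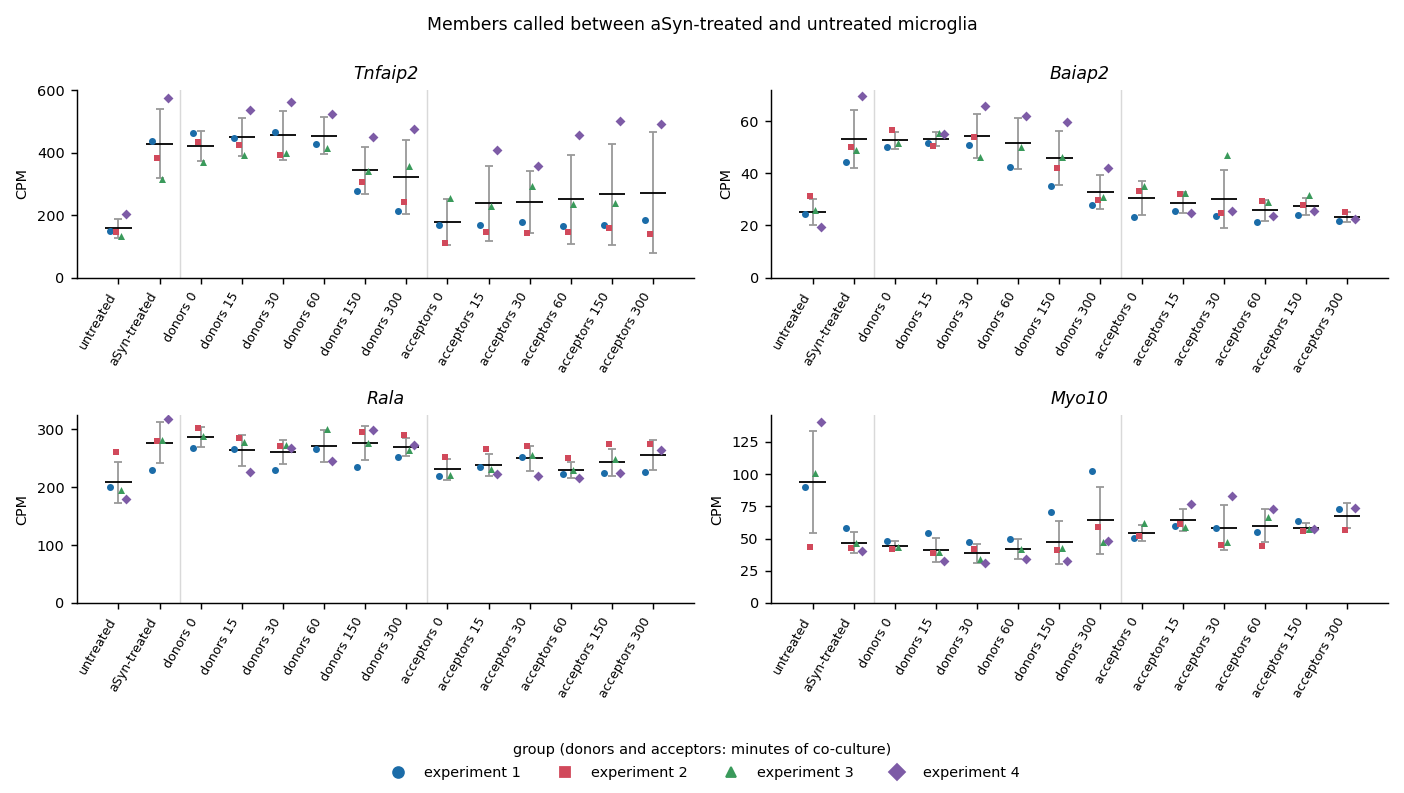
CPM of Tnfaip2, Baiap2, Rala and Myo10 (y axis, from 0) in the 14 groups (x axis), with 1 point for each sample, coloured by experiment, a black line at the group mean and a grey bar of 1 SD (n = 3 or 4). Tnfaip2 and Baiap2 are at 316 to 576 and 44.2 to 69.5 CPM in aSyn-treated cells, above all untreated samples, and acceptors of experiment 4 carry the highest Tnfaip2 among acceptors.

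The other 5 members passed no test between aSyn-treated and untreated cells without the block. Cdc42 was at 1111, 1232, 1155 and 825 CPM in untreated and 949, 948, 1145 and 716 CPM in aSyn-treated cells. Rac1 was at 568, 526, 534 and 456 CPM and at 470, 439, 496 and 387 CPM. Both were lower in each of 4 experiments, and the groups overlapped. With the block, the log2 difference was -0.22 ± 0.0616 for Rac1 (edgeR adjusted p = 0.00957) and -0.21 ± 0.0722 for Cdc42 (adjusted p = 0.0376). Cdc42 kept the call in 1 of 4 fits that left out an experiment (without 3) and Rac1 in 2 of 4 (without 3 and without 4). Exons of Rac1 overlap those of Daglb on the other strand. Daglb was lower too, at -0.54 on the log2 scale without the block and -0.73 with it. It was not called in either fit (edgeR adjusted p = 0.574 and 0.0792). The part of Daglb in the Rac1 result was not tested.

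Lst1, Fscn1 and Eps8 differed more between experiments than between these groups. Lst1 was at 108, 493, 167 and 110 CPM in untreated cells and at 181, 333, 223 and 152 CPM after aSyn, higher in 3 experiments and lower in experiment 2. Fscn1 encodes fascin, the bundler of filopodial actin, and had 7.97, 8.20, 38.7 and 12.9 CPM in untreated and 23.9, 8.53, 24.0 and 34.7 CPM in aSyn-treated cells. It was 1.58 log2 units higher in experiment 1 and 0.69 lower in experiment 3. Eps8, which caps and bundles actin and binds Baiap2, had 4.20 to 9.39 CPM in untreated cells and 6.63, 8.03, 7.32 and 18.5 CPM in aSyn-treated cells.

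The plot of differences within experiments sets these members side by side.

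**Figure D2:**
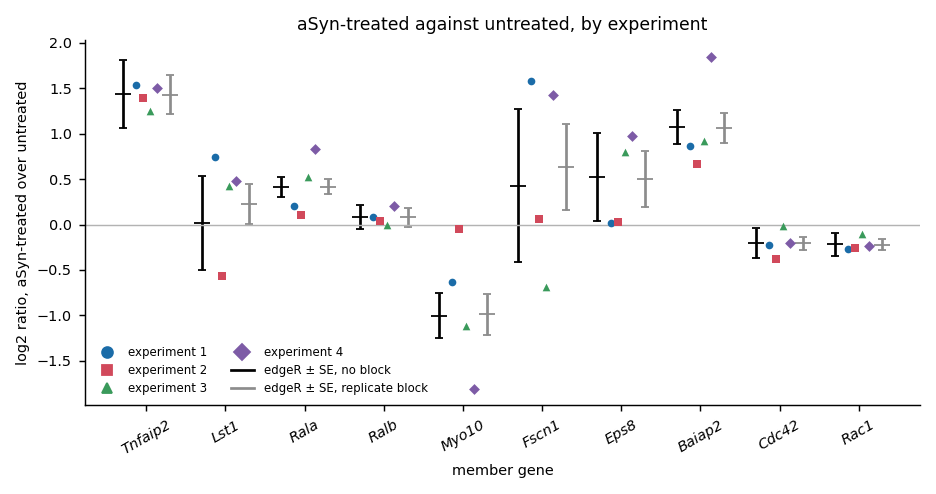
Log2 ratio of aSyn-treated over untreated CPM (y axis) for the 10 members (x axis), with 1 coloured point for each of 4 experiments and the edgeR estimate ± SE without (black) and with (grey) the block. Tnfaip2, Baiap2, Rala and Eps8 have 4 of 4 points above 0, 2 of those of Eps8 close to it, and Myo10, Cdc42 and Rac1 have 4 of 4 below it, while Lst1, Fscn1 and Ralb have points on both sides.

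The next comparison follows donors through co-culture against aSyn-treated cells that had none. Baiap2 was the only member called in either fit, and only with the block, where donors at 300 min were lower. All 6 comparisons share the aSyn-treated samples. Without the block 0 of 10 members were called at each time, with 0 or 1 member at an unadjusted p under 0.05, and DESeq2 called 0 as well. All genes gave 0% called at 0 to 150 min and 0.0304% at 300 min without the block, and 0% and 0.304% with it.

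Baiap2 in donors was at 49.9, 56.4 and 51.5 CPM at 0 min (experiments 1 to 3). At 150 min it was 35.1, 42.2, 46.1 and 59.8 CPM, and at 300 min 27.8, 29.9, 30.9 and 42.2 CPM. All donors at 300 min lay below all aSyn-treated samples, at 44.2 to 69.5 CPM. The log2 fold change at 300 min was -0.70 ± 0.188 without the block (edgeR adjusted p = 0.524) and -0.70 ± 0.161 with it (adjusted p = 0.0395). The call with the block was lost when experiment 1, 2 or 3 was left out, and was made without experiment 4.

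Tnfaip2 in donors was at 464, 433 and 370 CPM at 0 min and at 213, 243.3, 356 and 476 CPM at 300 min. Its log2 fold change at 300 min against aSyn-treated cells was -0.46 ± 0.210 with the block (edgeR adjusted p = 0.507), and 3 of 4 experiments were lower and experiment 3 higher. Myo10 in donors at 300 min was at 102, 59.05, 47.3 and 48.0 CPM, above the aSyn-treated sample in each of 4 experiments, a difference of 0.44 ± 0.221 on the log2 scale with the block (adjusted p = 0.598). Rala in donors stayed between 226.3 and 302 CPM over all times.

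Tests of any change over the 6 times called 0 of 10 members in donors, in acceptors and for the donor-acceptor difference, in both fits. The shares of all genes called were 0.0607, 0.00759 and 0% without the block and 0.577, 0.137 and 0.0456% with it. The lowest adjusted p of a member was that of Baiap2 in donors with the block, at 0.0638, and it was 0.0036 without experiment 4. Added after the data were seen, a test of whether the change at 300 min differed between donors and acceptors called 0 of 10 members, with 0% of all genes called without and 0.737% with the block.

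Acceptors, which were given no aSyn themselves, were set against untreated cells. They also carried the violet dye and passed the sorter, which is not stated for untreated cells. Co-culture with aSyn-treated donors, dye and sorting cannot be told apart here. None of the 10 members was called at any time in either fit, with 1 or 2 members at an unadjusted p under 0.05 at each time without the block and 0 calls from DESeq2. The shares of all genes called at 0, 15, 30, 60, 150 and 300 min were 0, 0, 0.114, 0.0683, 0.137 and 0% without the block and 0.995, 2.25, 3.6, 4, 4.78 and 0.623% with it. These 6 comparisons share the untreated samples.

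Tnfaip2 in acceptors at 150 min was 167, 159, 238.1 and 503 CPM, against 151, 147, 133 and 203 CPM in untreated cells. Each experiment was higher, by little in experiments 1 and 2 and by most in experiment 4, and the log2 fold change was 0.61 ± 0.211 with the block (edgeR adjusted p = 0.0809). Myo10 in acceptors lay between 44.3 and 83.0 CPM, below the untreated samples of experiments 1, 3 and 4 at each time measured. Its log2 fold change at 150 min was -0.66 ± 0.220 with the block (adjusted p = 0.0708), beside the marker sums given above for those untreated samples. Rala at 30 min had 0.27 ± 0.0847 (adjusted p = 0.0669), and without experiment 4 the block fit called it, at 0.26 (adjusted p = 0.0429).

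Donors and acceptors of the same co-culture time differed most clearly in Baiap2, which was higher in donors at 15, 30 and 60 min. Of 60 tests of a member at a time, 3 were called without the block, all of them Baiap2. All genes were called at 0.251, 0.888, 0.805, 0.418, 0.167 and 0.0304% at 0, 15, 30, 60, 150 and 300 min. With the block 16 of 60 were called, 15 higher and 1 lower in donors, against 4.28, 9.57, 10.8, 6.7, 5.19 and 1.38% of all genes. These comparisons share no sample with the one between aSyn-treated and untreated cells. They do share its experiments and its fit, so they are not independent of it. Donors had the labelled aSyn and acceptors the violet dye, so aSyn, its label and the dye cannot be told apart in these comparisons.

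Baiap2 at 15 min was 51.6, 50.4, 55.6 and 55.2 CPM in donors and 25.4, 32.1, 32.4 and 24.9 CPM in acceptors. At 60 min it was 42.5, 50.2 and 61.9 CPM in donors (experiments 1, 3 and 4) and 21.2, 29.2, 28.9 and 23.8 CPM in acceptors. The populations overlapped only at 30 min, where the acceptor of experiment 3 had 46.9 CPM and its donor 46.1 CPM. The log2 fold changes at 15, 30 and 60 min were 0.89 ± 0.189, 0.84 ± 0.188 and 0.999 ± 0.201 (SE, edgeR adjusted p = 0.00895, 0.0143 and 0.00962). At 300 min donors had 27.8 to 42.2 CPM and acceptors 21.7 to 25.3 CPM, which is 0.50 ± 0.205 on the log2 scale (adjusted p = 0.681).

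Without the block, leaving out 1 experiment kept the call of Baiap2 in 2, 1 and 0 of 4 fits at 15, 30 and 60 min, at log2 fold changes of 0.82 to 0.99, 0.67 to 1.21 and 0.82 to 1.08, with the loss at 15 min without experiment 1 or 2, at 30 min without 1, 2 or 4, and at 60 min without any one. With the block Baiap2 was called from 0 to 150 min, and at 15, 30, 60 and 150 min in 4 of 4 such fits. At 0 min it was called in 2 of 4, without experiment 3 or 4.

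Tnfaip2 was called higher in donors at 0, 15, 30 and 60 min with the block only, at log2 fold changes of 1.30 ± 0.247, 1.048 ± 0.212, 0.99 ± 0.212 and 0.86 ± 0.226 (edgeR adjusted p = 0.00106, 0.00101, 0.00188 and 0.0164). Its donors at 15 min had 448, 424, 392 and 536 CPM and its acceptors 167, 146, 229.2 and 409 CPM. The acceptor of experiment 4 reached the level of donors. Without the block Tnfaip2 was called at these 4 times once experiment 4 was left out, with a log2 fold change of 1.24 at 15 min. Leaving out 1 experiment with the block kept the call in 4 of 4 fits at 15 and at 30 min, in 2 of 4 at 0 min (without 3 or 4) and in 1 of 4 at 60 min (without 4). At 150 and 300 min the log2 fold change without the block was 0.37 ± 0.368 and 0.24 ± 0.399, and the acceptor of experiment 4 was above its donor at both times.

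Lst1 was higher in donors at 15, 30 and 150 min with the block, at log2 fold changes of 0.67 ± 0.222, 0.71 ± 0.222 and 0.77 ± 0.222 (edgeR adjusted p = 0.0488, 0.0328 and 0.0321). At 150 min its donors had 251.8, 357, 244.3 and 158 CPM and its acceptors 95.1, 288, 216 and 69.3 CPM. Donors were higher in each experiment, by more than 2-fold in experiments 1 and 4 and by little in 2 and 3. These calls were lost when experiment 1 or 4 was left out.

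Fscn1 was higher in donors at 15 and 60 min with the block, at log2 fold changes of 1.51 ± 0.496 and 1.78 ± 0.522 (edgeR adjusted p = 0.0453 and 0.0325). At 15 min its donors had 28.1, 6.34, 28.5 and 34.6 CPM and its acceptors 4.13, 1.93, 34.6 and 6.12 CPM. Acceptors of experiment 3 were at the donor level and the others were low. Leaving out experiment 1, 2 or 4 lost the call at both times. Without experiment 3 the log2 fold changes were 2.41 and 2.79 (adjusted p = 0.000383 and 0.00028), and Fscn1 was called at 0, 30 and 150 min too (1.88, 2.14 and 1.64, adjusted p = 0.042, 0.0011 and 0.0125).

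Eps8 at 15 min and Cdc42 at 30 min were called with the block, at log2 fold changes of 0.998 ± 0.323 and -0.21 ± 0.0722 (edgeR adjusted p = 0.042 and 0.0471), and neither call was made in any fit that left out an experiment. Rala at 60 min (0.28 ± 0.0916, adjusted p = 0.0562) and Myo10 at 15 min (-0.65 ± 0.223, adjusted p = 0.0551) did not pass. Without experiment 4 the block fit called Rala higher in donors at 0 and 60 min, by 0.32 and 0.34 on the log2 scale (adjusted p = 0.00599 and 0.0163). Ralb and Rac1 were called at no time. Of the markers of other cells, Pecam1, an endothelial marker that leukocytes carry as well, was higher without the block in donors at 15 and 30 min (2.91 and 3.45 on the log2 scale, edgeR adjusted p = 0.0351 and 0.0107) and in aSyn-treated cells (2.53, adjusted p = 0.0389). The sum of the 4 endothelial markers in the table was 58.8 to 82.7 CPM in donors and 42.3 to 57.5 CPM in acceptors at 15 min, without overlap. The ranges overlapped at 30 min, at 50.3 to 73.01 and 36.1 to 88.5 CPM, and after aSyn, at 70.7 to 90.96 CPM in aSyn-treated against 52.98 to 97.4 CPM in untreated cells. With the block Pecam1 was again called at 15 and 30 min, and the endothelial marker Kdr was higher in donors at 0 and 15 min. The values for Kdr were 1.53 and 1.15 on the log2 scale (edgeR adjusted p = 0.0245 and 0.0332). The astrocyte marker Gja1 was lower in donors at 15 min with the block (-4.02, adjusted p = 0.046). In both fits 4 of 4 endothelial markers were above 0 at 0, 15 and 60 min, 2 at 30 min and 3 at 150 and 300 min. The part of Pecam1 and of these other markers in the results was not tested.

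**Figure D3:**
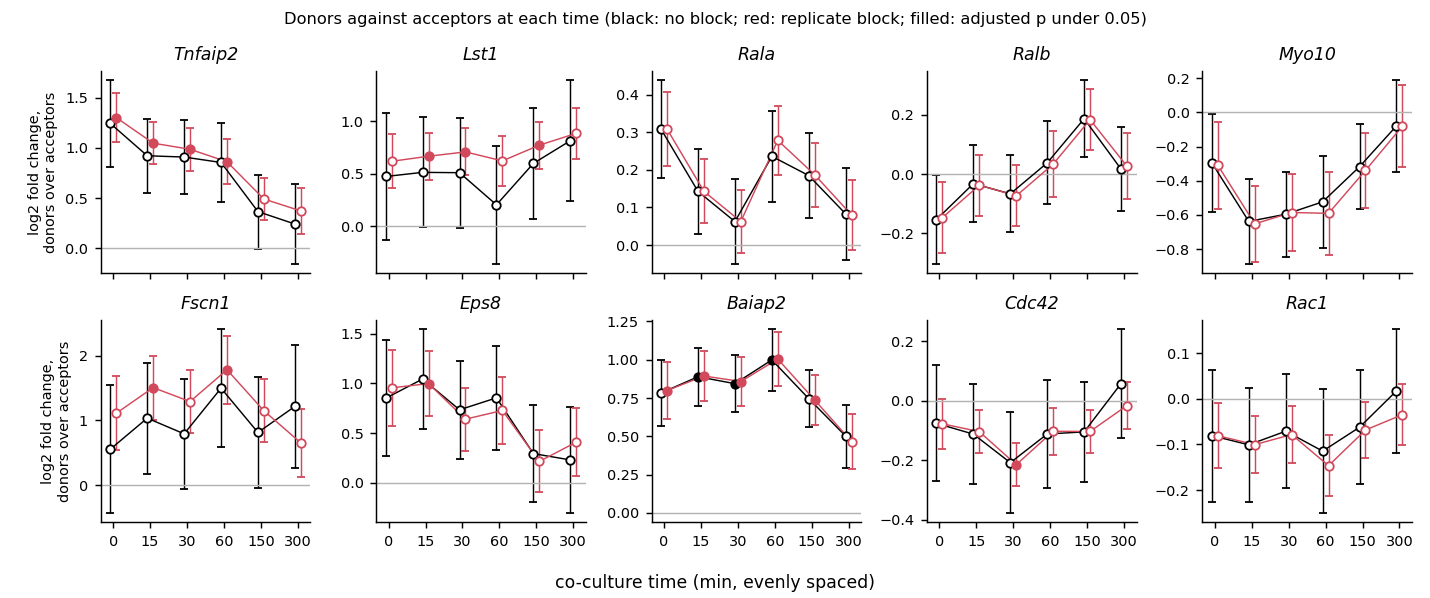
Log2 fold change of donors over acceptors ± SE (y axis, a scale for each gene) at the 6 co-culture times (x axis, min), without (black) and with (red) the block, for the 10 members. Filled points have an adjusted p under 0.05: Baiap2 at 15, 30 and 60 min in black, and 16 points in red, 5 of them Baiap2.

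The order of levels over the 14 groups put the donor groups and aSyn-treated cells on top for Tnfaip2 and Baiap2. For Tnfaip2 the mean ran from 456 ± 79.3 CPM in donors at 30 min (SD, n = 4) to 158 ± 30.6 CPM in untreated cells (n = 4). For Baiap2 it ran from 54.2 ± 8.48 CPM in donors at 30 min (n = 4) to 23.1 ± 1.92 CPM in acceptors at 300 min (n = 3). For each of these 2 genes 1 of 13 steps between neighbouring groups exceeded the larger of the 2 SDs, and for the other 8 members 0 of 13 did.

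The highest group mean was that of donors at 300 min for Lst1, donors at 0 min for Rala, donors at 150 min for Ralb, untreated cells for Myo10 and Rac1, donors at 60 min for Fscn1, aSyn-treated cells for Eps8 and acceptors at 30 min for Cdc42. The lowest was acceptors at 15 min for Lst1, untreated cells for Rala, donors at 0 min for Ralb, donors at 30 min for Myo10, acceptors at 60 min for Fscn1, acceptors at 0 min for Eps8 and aSyn-treated cells for Cdc42 and Rac1. The ratio of highest to lowest group mean was 1.16 for Rac1, 1.197 for Cdc42 and 1.21 for Ralb, and 3.17 for Eps8.

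Members differed in how much of their variation went with the groups and how much with the experiments. Group accounted for 80.96% of the variance of log2 CPM for Baiap2, 57.1% for Tnfaip2, 52.9% for Myo10 and 51.0% for Rala, and experiment for 5.89, 31.1, 9.47 and 21.5%. Experiment accounted for 78.03% for Cdc42, 70.2% for Rac1, 64.0% for Lst1 and 51.1% for Fscn1. Eps8 (group 35.1%, experiment 41.5%) and Ralb (15.7 and 33.9%) had shares below those. With group and experiment not balanced, these shares overlap and are descriptions.

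**Figure D4:**
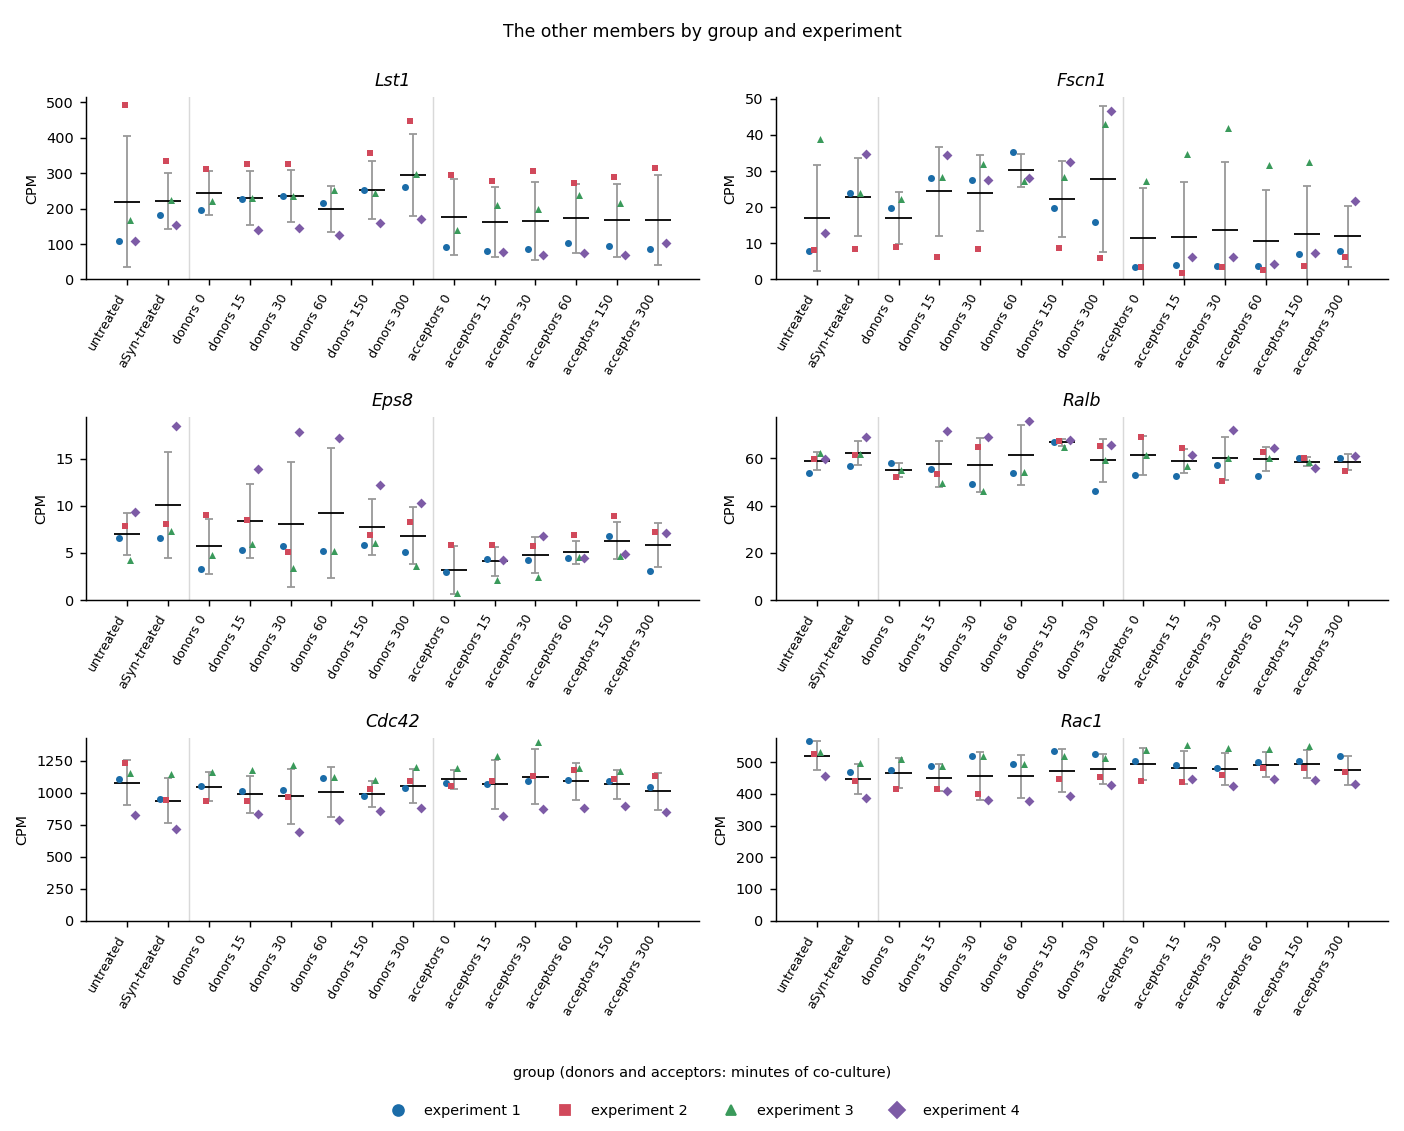
CPM of Lst1, Fscn1, Eps8, Ralb, Cdc42 and Rac1 (y axis, from 0) in the 14 groups (x axis), with 1 point for each sample, coloured by experiment, a black line at the group mean and a grey bar of 1 SD (n = 3 or 4). Lst1 is highest in experiment 2 in each group that has it, Fscn1 of experiment 3 stands above the other acceptors from 0 to 150 min at 27.4 to 41.8 CPM, and Cdc42 is lowest in experiment 4.

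Over the 52 samples, after removal of the experiment means, Lst1 and Fscn1 ran together (r = 0.825), and Myo10 ran against Baiap2 (r = -0.764). The genes nearest to Tnfaip2 in pattern were Tfec (r = 0.948), a relative of the lysosomal regulator TFEB, Sqstm1 (0.882), the autophagy receptor p62, and Pla2g7 (0.874). The genes nearest to Baiap2 were the kinase Syk (0.903), Ppp1r15b (0.892) and the integrin Itgal (0.882). Those nearest to Myo10 were Rasa1 (0.925), Mef2c (0.917) and Nrp1 (0.888), those nearest to Rala were Psmb6 (0.838), Acod1 (0.826) and Clec4e (0.812), and those nearest to Lst1 were Clec4a3 (0.912), Clec4a1 (0.905) and Cd52 (0.890). Genes near to Fscn1 included Clec4a1 (0.867) and Mapkapk2 (0.857), and Eps8 was nearest to Calr (0.768), Pnp (0.767) and Fam102b (0.754). Cdc42 was nearest to Rps24 (0.792), Pias1 (0.783) and Fam174a (0.741), and Rac1 to Slc12a7 (0.771), B4galt6 (0.767) and Lmo2 (0.753). Samples of an experiment share a replicate number and a passage and deviate together, so these values are descriptions.

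Partner genes of the same machinery were listed in 10 groups, 120 genes, of which 118 were in the table and 112 passed the filter. Between aSyn-treated and untreated cells 5 of 112 were called without the block, 4 higher and 1 lower, with a median log2 fold change of -0.10 (-0.04 over all genes). With the block 33 of 112 were called, 13 higher and 20 lower. The shares of all genes called were 2.5% without and 19.2% with the block.

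Among Ral regulators and effectors 1 of 11 was called. Ralgds, the exchange factor that activates Ral GTPases, was at 20.1, 12.7, 19.7 and 13.4 CPM in untreated and at 46.5, 40.9, 36.3 and 97.9 CPM in aSyn-treated cells. The groups did not overlap, and its log2 fold change was 1.76 ± 0.437 (edgeR adjusted p = 0.0195). Of the listed Exoc3-like relatives of Tnfaip2 only Exoc3l4 passed the filter. It was higher by 1.79 ± 0.464 on the log2 scale (adjusted p = 0.0256), at 0.505 to 1.46 against 2.73 to 4.45 CPM. Exoc3, listed with the exocyst, had a log2 fold change of 0.18 (adjusted p = 0.675). Of the exocyst itself, 0 of 9 subunits were called without the block and 1, Exoc4, was lower with it (-0.50, adjusted p = 0.00691).

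Among Cdc42 effectors and regulators 2 of 25 were called, both higher. Cdc42se2, a small Cdc42-binding protein, had a log2 difference of 0.51 ± 0.113 (edgeR adjusted p = 0.00688), and Dock10, an exchange factor, of 1.002 ± 0.288 (adjusted p = 0.0489). With the block 8 of 25 were called, 3 higher and 5 lower. The 5, named after their values were seen, were Cdc42ep3 (-1.44), Dock8 (-0.86), Fgd4 (-0.69), Pak1 (-0.66) and Dock11 (-0.32). Of 9 I-BAR and Eps8 relatives Mtss1 was called, lower by 0.75 ± 0.205 on the log2 scale (adjusted p = 0.0353). It had 112 to 192 CPM in untreated and 72.97 to 94.4 CPM in aSyn-treated cells, so this I-BAR gene and Baiap2 moved in opposite directions. The block fit called 5 of these 9 relatives, 1 higher and 4 lower, where it called 19.2% of all genes.

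The remaining lists had no call without the block. With it, Ezr, the membrane-actin linker ezrin, was higher by 1.13 (edgeR adjusted p = 0.000241), while the bundler Lcp1 was lower, at -0.57 (adjusted p = 0.000154), and so was Rdx, at -0.39 (adjusted p = 0.00908). Of 11 genes of filopodium elongation 4 were called, 2 higher and 2 lower. Among them were Vasp (0.68, adjusted p = 0.00418), Fmnl1 (-0.68, adjusted p = 0.0157) and Enah (-2.11, adjusted p = 0.00133). Of 23 Rac and WAVE genes 6 were called, 3 higher and 3 lower. Among them were Rac2 (1.03, adjusted p = 0.00753), Dock1 (-1.09, adjusted p = 0.0158) and Wasf1 (-2.68, adjusted p = 0.00457). Of 10 Arp2/3 genes, its inhibitor Arpin among them, Arpc4 and Actr3 were lower (-0.34 and -0.33, adjusted p = 0.0167 and 0.0389), and of 6 trafficking genes linked to nanotubes the GTPase Rab35 was higher (0.30, adjusted p = 0.0482). The 6 of 23 Rac and WAVE genes, 2 of 10 Arp2/3 genes and 1 of 6 trafficking genes are near the 19.2% of all genes. Enah at 9.87 ± 9.79 and Wasf1 at 3.17 ± 3.12 CPM (SD, n = 4) were uneven among untreated samples, in which astrocyte and neuron marker sums were uneven too. The part of those markers was not tested.

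**Figure D5:**
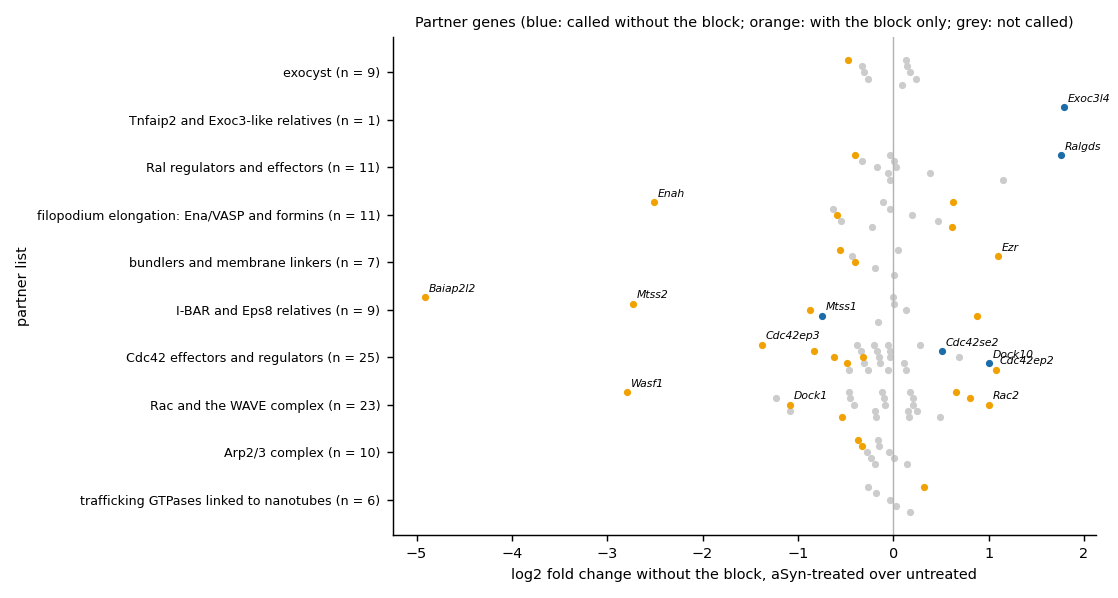
Log2 fold change without the block of aSyn-treated over untreated cells (x axis) for the 112 partner genes by list (y axis), 1 point for each gene. The 5 blue points passed the test without the block (Exoc3l4, Ralgds, Dock10, Cdc42se2 and Mtss1), orange points passed with the block only and grey points passed neither, and points are offset vertically for legibility.

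In the co-culture, partner genes gave 0 calls of 112 against aSyn-treated cells at each time without the block, and 0 against untreated cells. With the block Ralgds was the only partner called in donors, at 300 min, where it was at 18.7, 16.6, 29.1 and 44.0 CPM (-1.02 on the log2 scale, edgeR adjusted p = 0.0414). It was also the only partner called for change over time in donors (adjusted p = 0.00588), with means of 69.8 ± 20.5 CPM at 60 min (SD, n = 3) and 27.1 ± 12.5 CPM at 300 min (n = 4). Ralgds and Baiap2 were thus both higher after aSyn and lower in donors at 300 min with the block, in comparisons that share the aSyn-treated samples.

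Between donors and acceptors Cdc42se2 was higher in donors at 0, 15, 30 and 150 min without the block, at log2 fold changes of 0.64, 0.46, 0.55 and 0.67 (edgeR adjusted p = 0.0147, 0.032, 0.00669 and 0.00245). At 15 min Rgl1, another Ral exchange factor, was higher (1.98, adjusted p = 0.0483) and the formin Fmnl3 lower (-0.91, adjusted p = 0.0297), and at 60 min Exoc3l4 was higher (2.09, adjusted p = 0.0401). The block fit called 10, 19, 21, 18, 7 and 2 of 112 at the 6 times, where 4.28, 9.57, 10.8, 6.7, 5.19 and 1.38% of all genes were called. Among the lists with no call without it, Ezr (up to 1.21) and the WAVE subunit Cyfip2 (up to 0.99) were higher at 4 and 6 of the times, and Rac2 (up to 1.01) and Abi3 (up to 0.96) at 3 each. Lower in donors were Rdx (down to -0.49) and Exoc4 (down to -0.56) at 4 of the times, Mtss1 (down to -0.78) at 3 and Actn4 (-0.30) and Exoc2 (-0.49) at 1, while Exoc1 (0.41) was higher at 1.

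In acceptors against untreated cells the block fit called 2, 3, 6, 4, 9 and 1 of 112 at the 6 times, against 0.995, 2.25, 3.6, 4, 4.78 and 0.623% of all genes. At 0, 15, 60 and 300 min these counts are near the share over all genes, and the genes are named as values only. Lcp1 was lower at each time from 0 to 150 min (log2 fold changes from -0.47 to -0.34), and the Cdc42 exchange factor Itsn1 from 15 to 150 min (from -0.75 to -0.51). Fgd2, a further Cdc42 exchange factor, and Vav3, which acts on Rac, were lower at 3 times each (down to -0.91 and -0.74). Exoc6b (-0.52 at 150 min), Exoc1 (-0.39) and Arpc2 (-0.45), both at 30 min, were lower as well. Higher were Cdc42ep2 (1.26), Ralgds (0.95) and Arhgap22 (0.60) at 150 min and Ezr (0.92) at 300 min.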

How the data were processed

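Expression was measured in 54 libraries of mouse microglia with a 3′-tag kit, QuantSeq forward, read as 50 bp single reads, as the labels' protocols state. Raw counts per gene symbol were deposited by the authors. They also deposited a normalized signal, which equals count over DESeq2 size factor for 100% of values (tolerance 0.051) and was used for that check only. STAR, Partek, DESeq2 and mm10 are named, without versions, in the submitters' processing notes. The annotation and strand setting are not given in the sources used here. Reads without molecular identifiers are not independent molecules.

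Untreated libraries with the same number (chi-square per degree of freedom 10.3 and 12.1, against 24.2 to 288 for other pairs) were summed, which left 52 samples. edgeR 4.0.16 in R 4.3.3 fitted all 14 groups (TMM, filterByExpr on groups, minimum count 10, quasi-likelihood F test), and p-values were adjusted by Benjamini-Hochberg over 13169 genes in each of 19 pairwise comparisons and 3 F tests. Library totals were 7807389 to 15537493 counts. The labels give the replicate numbers, and same-numbered samples deviated together in all 19 comparisons (lowest correlation of a pair 0.199, means 0.339 to 0.593), so results with the number as a block are given beside those without. Nothing else says that replicates came from separate animals, so p-values measure the spread between these samples.

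The members and lists were chosen with earlier results of these data known. Named genes are all 10 members, up to 3 partner genes a list and family of comparisons, by size of change among those called (without the block, else with it), and the 3 genes of highest Pearson r (log2 CPM, prior count 2) for each member called in any fit; 1 of these is not reported here. Coordinates are from GENCODE vM21, promoters from RefSeq (7 of 10 members matched). Alternatives were DESeq2 1.42.0, its size factors, no filter, only the groups compared, libraries kept apart, and each experiment left out. The procedure was run on simulated counts with known changes. Their spread was set below that of the fit without the block, and they held no difference between experiments. That run therefore does not give the error rate in these data.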

Additional observations from a re-analysis of the deposited data

Results flagged for a closer look

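In each of 100 sets of a member gene and a group with 4 samples, the most extreme sample was set against the others with Dixon's ratio, which by chance marks about 1 set in 20. It marked 13. Of these, 5 were Fscn1 in experiment 3, at 38.7 CPM in untreated cells (others 7.97 to 12.9) and at 34.6, 41.8, 31.7 and 32.4 CPM in acceptors at 15, 30, 60 and 150 min (others 1.93 to 7.42). Eps8 stood out in experiment 4 at 18.5 CPM in aSyn-treated cells (others 6.63 to 8.03) and at 17.8 and 12.2 CPM in donors at 30 and 150 min (others 3.41 to 6.88), and in experiment 2 at 6.89 CPM in acceptors at 60 min (others 4.44 to 4.54).

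Lst1 in untreated experiment 2 was at 493 CPM (others 108 to 167), and Baiap2 in the acceptor of experiment 3 at 30 min was at 46.9 CPM (others 23.6 to 25.3). The acceptor of experiment 4 at 15 min had 76.7 CPM of Myo10 (others 58.6 to 61.5), and the donor of experiment 1 at 30 min had the lowest Rala, at 230.7 CPM (others 268.8 to 273).

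At 300 min 2 members moved one way in all donors and the other way in all acceptors, among 60 pairs of a member and a time. Lst1 was higher by 0.385 log2 units in donors against aSyn-treated cells and differed by -0.358 in acceptors against untreated cells, a gap of 0.743. Rac1 had 0.100 and -0.122, a gap of 0.222. A test of the gap itself, added after the data were seen, gave edgeR adjusted p-values of 0.999 for both without the block, and 0.412 for Lst1 and 0.403 for Rac1 with it.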

How the results depend on the processing

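Between aSyn-treated and untreated cells 4 members were called. The count was 1 when only the groups compared were fitted and 1 to 3 when an experiment was left out. Against aSyn-treated cells it rose from 0 to 1 with the replicate block, and was 1 with the block and without experiment 4 (Baiap2). Acceptors against untreated cells gave 0, and 1 with the block and without experiment 4 (Rala). Change over time in donors gave 0, and 1 with the block and without experiment 4 (Baiap2). Donors against acceptors gave 3, 16 with the replicate block, 0 with only the groups compared and 0 to 6 with an experiment left out, and with the block 6, 9, 16 and 12 without experiments 1, 2, 3 and 4. These block fits without an experiment were added after the data were seen.

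The fit without the block made 7 calls of a member, and 16 more were made with the block only. All 7 were kept with DESeq2 size factors, without the filter, with libraries kept apart and with DESeq2, and 6 of the 7 were lost with only the groups compared. The 16 stayed uncalled in these alternatives, except that DESeq2 called Baiap2 at 150 min. No direction reversed in any alternative. The count over all genes for aSyn-treated against untreated cells was 329, against 2524 with the block, 592 with DESeq2, 37 with only the groups compared, 618 with libraries kept apart and 73 to 301 with an experiment left out. Partner genes called numbered 5 there (33 with the block, 8 with DESeq2, 0 with only the groups compared, 8 with libraries kept apart, 0 to 7 with an experiment left out). Tests of a partner gene at a time called between donors and acceptors numbered 7 (77, 19, 1, 6 and 0 to 19 in that order), and between acceptors and untreated cells 0 (25 with the block, 1 with DESeq2 and 1 with libraries kept apart). The cause of these differences was not tested. Depth limits genes with few counts in a sample, such as Eps8, Fscn1 and Exoc3l4.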
